A study of Homo sapiens with 8 samples.

Results

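The RGS genes encode regulators of G-protein signalling, and 10 of them are described here in HEK293F cells, an established line from human embryonic kidney, after the level of the RNA helicase MOV10 had been raised or lowered. They are RGS2, RGS3, RGS4, RGS10, RGS12, RGS14, RGS16, RGS17, RGS19 and RGS20, out of 23368 gene symbols in the count table and 21 symbols made of RGS and a number. The list was drawn up because RGS genes leaned lower with MOV10 knockdown, so the knockdown values are given as a description with no test. The overexpression comparison was not the measure of that choice and is tested, although it uses the same control libraries and its results were known when the list was drawn up. All 10 genes passed the filter on low counts.

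RNA was sequenced from 8 libraries. The 3 control libraries came from cells given an irrelevant siRNA in 3 rounds at 24 h intervals, and the 2 knockdown libraries (replicates 2 and 3) from cells given MOV10 siRNA on the same schedule. The 3 overexpression libraries came from cells transfected 1 time with a plasmid for myc-tagged MOV10. No empty-plasmid library was used here, so the delivery of a plasmid in place of siRNA cannot be told apart from the rise of MOV10. Whether replicate libraries stem from separate cultures is not stated in the labels, and p-values cover just the variation among the sequenced libraries, part or all of which may be technical.

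A G protein made of an alpha, a beta and a gamma subunit passes the signal from a receptor at the cell surface to enzymes and channels inside the cell. The alpha subunit is active while it holds GTP, and RGS proteins speed up its GTP hydrolysis through a shared domain, the RGS box, which ends the signal. They are grouped by sequence into the small R4 type (here RGS2, RGS3, RGS4 and RGS16), the RZ type (RGS17, RGS19 and RGS20), the R12 type (RGS10, RGS12 and RGS14) and the R7 type, which works as a complex with the beta subunit GNB5.

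Library totals ran from 12.7 M to 32.8 M counts, the smallest being overexpression replicate 3 and the largest knockdown replicate 2. In every library MOV10 lay on the side its label gives. Its level was 81.5 ± 8.44 CPM in control (counts divided by the scaled library size in M counts; SD, n = 3), 53.1 ± 3.47 CPM with knockdown (n = 2) and 2780 ± 284 CPM with overexpression (n = 3), log2 fold changes of -0.62 ± 0.08 and 5.10 ± 0.07 (SE; edgeR adjusted p = 8.84e-06 and 2.1e-21). All 7 markers of HEK293 cells were detected, with a summed level of 1242 to 1258 CPM in control, 1420 to 1495 CPM with knockdown and 1094 to 1165 CPM with overexpression. The 8 blood cell markers summed to at most 3.04 CPM in any library, with HBB at 0 throughout, and the 5 endothelial markers to at most 2.93 CPM. The 7 fibroblast markers summed to 62.3 to 68.1 CPM in control, 45.7 to 48.4 CPM with knockdown and 62.4 to 69.9 CPM with overexpression, and the 6 markers of neurons and glia to between 40.0 and 45.6 CPM. Single genes made up much of some sums: VIM held 827 CPM of the HEK293 sum in control, 1055 with knockdown and 772 with overexpression. COL1A1 held 59.0, 41.0 and 56.5 CPM of the fibroblast sum in the same order (group means). Within the neuron and glia list, SNAP25 went from 1.51 to 6.16 CPM with overexpression and SYP from 18.8 to 12.6 CPM. The part of these marker levels in the results below was not tested. In bulk RNA, fewer cells expressing a gene and less RNA per cell cannot be told apart. Overexpression replicate 3 departed from replicates 1 and 2 along GC content, with a Spearman correlation of -0.61 across 14525 genes between its log2 deviation and the GC content of the transcript. Genes are not independent replicates, and this is a description.

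Among the RGS genes, RGS16 and RGS10 were the most abundant per length and RGS3 and RGS20 the least. Levels were set side by side as CPM per kb of merged exons. In control libraries RGS16 stood at 22.8 ± 0.991 CPM per kb, RGS10 at 18.7 ± 0.475, RGS19 at 12.0 ± 0.0894, RGS2 at 5.99 ± 0.522 and RGS14 at 5.05 ± 0.308 (SD, n = 3, as for those that follow). RGS12 stood at 1.57 ± 0.0904, RGS4 at 0.771 ± 0.0185, RGS17 at 0.478 ± 0.0352, RGS20 at 0.267 ± 0.109 and RGS3 at 0.227 ± 0.0574 CPM per kb. RGS20 and RGS3 are the only neighbours in this order whose control libraries overlapped. RGS2 and RGS14 came closest otherwise, with the lowest RGS2 library at 5.39 and the highest RGS14 library at 5.38 CPM per kb. RGS3 and RGS12 have long merged exons (13793 and 13755 bases) from many isoforms, which lowers their level on this scale.

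**Figure D1:**
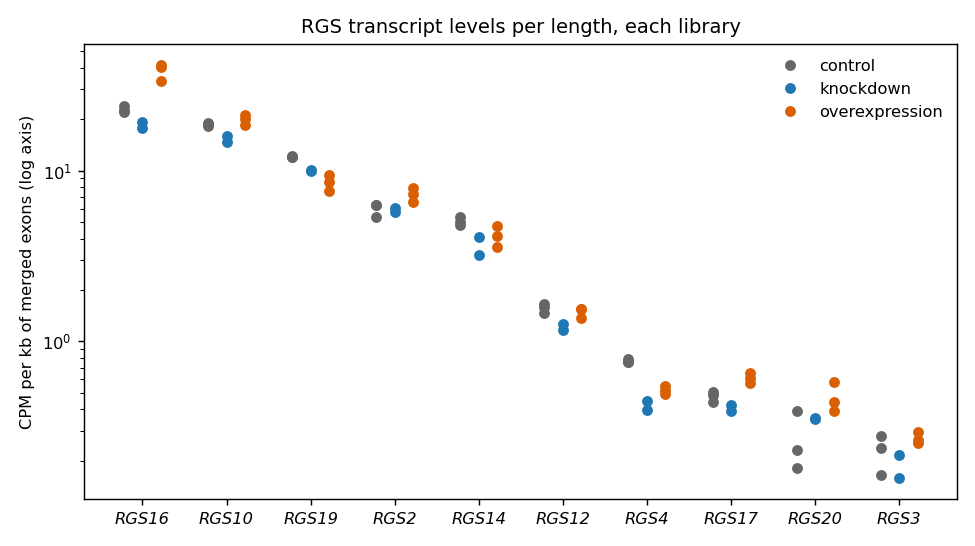
Level of each RGS gene in CPM per kb of merged exons (vertical log axis) in every library, with genes ordered by their control mean; grey points are control, blue knockdown and orange overexpression libraries. The control means run from 22.8 for RGS16 to 0.227 for RGS3, and RGS16 in the overexpression libraries stands above all other values.

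With MOV10 overexpression the RGS genes did not move one way. In edgeR's quasi-likelihood test, with p-values adjusted after Benjamini and Hochberg over 15254 genes, RGS16, RGS20, RGS17 and RGS2 rose, RGS4, RGS19 and RGS14 fell, and RGS3, RGS10 and RGS12 did not pass an adjusted p of 0.05. Of all genes, 49.2% passed this test (25.2% higher and 24.1% lower), so the 7 of 10 RGS genes are to be read against that share. The libraries of the same 7 genes did not overlap with control, 4 higher and 3 lower, against 56.0% of all genes (28.5% higher and 27.5% lower). Below 0 were 4 of the 10 log2 fold changes, against 48.0% of all genes. The median log2 fold change of the 10 genes was 0.17, against 0.01 over all genes tested. The calls for RGS16, RGS4 and RGS19 were kept under all 16 alternative analyses. Those for RGS2, RGS14, RGS17 and RGS20 were each lost in 4 to 7 of them, and only RGS16 of the 4 higher genes was called by DESeq2. Without overexpression replicate 3, RGS16 was the only higher gene and RGS4 and RGS19 the only lower genes called. Of all genes, 43.3% were called by DESeq2 and 51.2% without overexpression replicate 3.

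**Figure D2:**
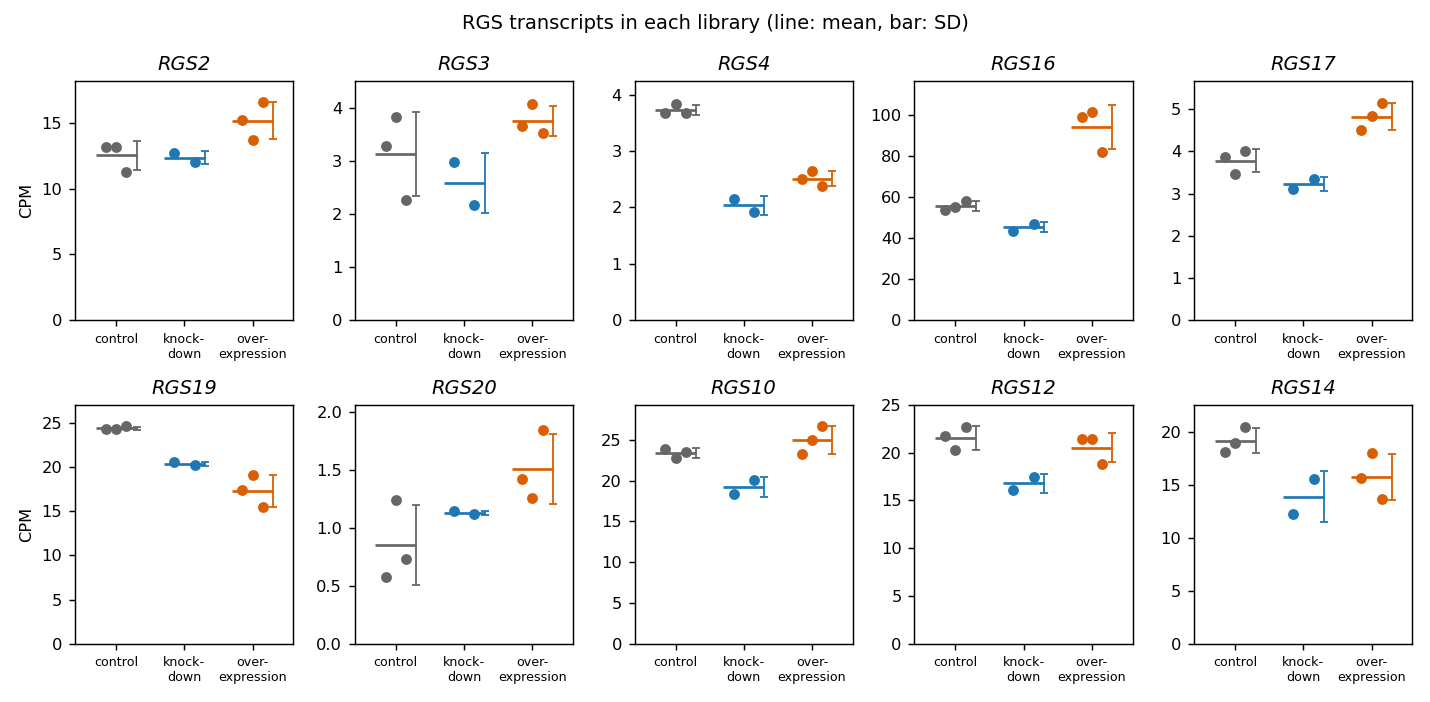
CPM (vertical axis, from 0) of the 10 RGS genes in each control, knockdown and overexpression library; points are libraries, horizontal lines group means and vertical bars the SD. RGS16 lies between 81.8 and 101 CPM with overexpression against 53.3 to 58.0 CPM in control. RGS4, RGS19 and, narrowly with overexpression, RGS14 lie below control in both treatments.

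The promoters of the 4 genes that were called with overexpression and have a single annotated start are shown so that the gene that fell can be set beside those that rose. Each run holds the 250 bases before the RefSeq start in GRCh38.p14, 5′ to 3′ on the gene's strand, with GC boxes (GGGCGG or its reverse complement) in capitals. RGS16 is at chr1:182604390-182604639 on the minus strand, RGS2 at chr1:192808789-192809038 on the plus strand, RGS17 at chr6:153131283-153131532 on the minus strand and RGS14 at chr5:177357674-177357923 on the plus strand.
RGS16: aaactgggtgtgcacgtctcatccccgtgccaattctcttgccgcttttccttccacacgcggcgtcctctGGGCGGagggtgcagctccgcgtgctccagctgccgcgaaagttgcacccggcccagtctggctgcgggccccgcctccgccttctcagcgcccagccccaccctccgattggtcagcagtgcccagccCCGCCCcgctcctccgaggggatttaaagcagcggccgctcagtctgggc
RGS2: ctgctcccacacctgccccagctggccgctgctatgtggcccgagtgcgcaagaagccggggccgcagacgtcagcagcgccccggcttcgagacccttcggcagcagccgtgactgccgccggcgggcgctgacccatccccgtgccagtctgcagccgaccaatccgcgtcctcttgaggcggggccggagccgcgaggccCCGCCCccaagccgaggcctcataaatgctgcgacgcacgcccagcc
RGS17: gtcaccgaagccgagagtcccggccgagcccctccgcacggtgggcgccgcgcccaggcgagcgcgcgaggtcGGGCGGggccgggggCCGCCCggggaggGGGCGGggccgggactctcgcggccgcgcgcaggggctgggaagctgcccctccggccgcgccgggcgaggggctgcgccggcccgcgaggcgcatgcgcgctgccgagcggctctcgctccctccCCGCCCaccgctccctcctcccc
RGS14: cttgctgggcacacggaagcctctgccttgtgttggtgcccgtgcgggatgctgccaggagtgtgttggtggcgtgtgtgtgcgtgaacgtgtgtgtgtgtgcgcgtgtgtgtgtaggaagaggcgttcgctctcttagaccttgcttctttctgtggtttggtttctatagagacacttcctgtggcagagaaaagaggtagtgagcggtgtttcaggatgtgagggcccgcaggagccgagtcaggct

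RGS16 holds GC boxes that begin at -179 and -50 from the start, RGS2 at -47, and RGS17 at -177, -162, -149 and -23, while these letters are not in the RGS14 window. A GC box is present in 42.6% of 35116 such windows of all genes. The GC content of the window was 68.4% for RGS16, 72.8% for RGS2, 84.0% for RGS17 and 56.8% for RGS14, against a median of 58.0%. On both strands, none of these 4 windows holds a TATA box (TATAAA, 10.7% of all windows), a CRE (TGACGTCA, 1.65%), an AP-1 site (TGANTCA, 6.57%), an E box (CACGTG, 6.34%), a CArG box (1.16%) or a heat shock element (0.44%). RGS4, with 4 annotated starts, has a TATA box 30 bases before one of them, and RGS19, with 2 starts, holds GC boxes before both and an E box before one. These matches are letters only and say nothing of a factor.

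The study's title concerns regulation by microRNAs, which bind 3' UTRs through bases 2 to 8 of the microRNA, the seed. Among 19 microRNA families with a mature sequence at hand, 8-base matches (the reverse complement of the seed followed by A) were sought in the longest annotated 3' UTR of each gene. RGS17 held 10 of the 12 matches found, RGS3 held 1 (miR-92a) and RGS4 held 1 (miR-26a), and RGS17 matches both of these microRNAs too; RGS16, RGS19, RGS2, RGS10, RGS12, RGS14 and RGS20 held none. The 3' UTR of RGS17 is 7115 bases long, longer than 97.2% of 18210 annotated 3' UTRs (median 1163), so it has more room for matches. The match of RGS4 and the 3 matches of RGS17 to miR-182 are shown as the only match of RGS4 and as one of the microRNAs with the most matches in RGS17. Capitals mark the seed in the microRNA and the 8-base match in the site. In the GENCODE 29 annotation (GRCh38) the match begins at base 1466 of the 2242 bases of the RGS4 3' UTR, and at bases 203, 413 and 3387 of that of RGS17.
hsa-miR-26a-5p: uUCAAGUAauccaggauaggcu
RGS4 site: aaggcacattgaaaTACTTGAAaact
hsa-miR-182-5p: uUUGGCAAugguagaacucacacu
RGS17 site 1: cacaaaacaatgaaTTGCCAAAttgt
RGS17 site 2: gtcttaagaaataaTTGCCAAAaaaa
RGS17 site 3: ctgatagttcagttTTGCCAAAggac

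An 8-base match to miR-26a occurs in 5.22% and to miR-182 in 5.98% of all 3' UTRs. The level of these microRNAs in the cells was not measured. The AUUUA pentamer of AU-rich elements, which mark short-lived mRNAs, occurred 36 times in the 3' UTR of RGS17, 5 times in that of RGS16, 3 times each in RGS3, RGS4 and RGS20 and 2 times each in RGS2 and RGS19. RGS10, RGS12 and RGS14 had none. At least 1 pentamer was present in 70.0% of the 10 genes and in 69.3% of the 18210 annotated 3' UTRs, so this share was near that of genes at large. Per kb of 3' UTR the median was higher, at 2.94 pentamers in the 10 genes and 1.54 over all 3' UTRs. The median 3' UTR length was 817.5 and 1163 bases, and the difference in density was not tested.

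RGS16, an R4 protein that acts on alpha subunits of the Gi and Gq kinds, had the smallest adjusted p of the family with overexpression. It measured 53.3, 54.8 and 58.0 CPM in the control libraries, 98.8, 101 and 81.8 CPM in the overexpression libraries, and 43.4 and 46.8 CPM in the knockdown libraries. All overexpression libraries were above and both knockdown libraries below every control library. The log2 fold change with overexpression was 0.77 ± 0.07 (SE), a 1.71-fold rise with an adjusted p of 2.61e-08, and it ran from 0.73 to 0.86 over the alternatives, with adjusted p-values from 1.41e-34 to 1.17e-06. With knockdown the log2 fold change was -0.30 ± 0.08. The neighbouring gene on the same strand, RGS8, had 1 read in all libraries together.

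RGS4, another R4 protein for Gi and Gq, and one best known from brain, was lower in both treatments than in control. Its control libraries held 3.68, 3.83 and 3.67 CPM, its overexpression libraries 2.50, 2.64 and 2.38 CPM, and its knockdown libraries 2.16 and 1.91 CPM. The treated libraries did not overlap with control in either comparison. The fitted log2 fold change with overexpression was -0.56 ± 0.15 (adjusted p = 0.00378), which rests on 31 to 83 reads per control or overexpression library. The knockdown log2 fold change was -0.85 ± 0.17, the lowest of the 10 genes.

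RGS2, an R4 protein selective for the Gq kind of alpha subunit, rose slightly with overexpression. It measured 13.2, 13.2 and 11.3 CPM in control and 15.2, 13.7 and 16.6 CPM with overexpression, so all overexpression libraries were above control, replicate 2 by a small margin. The change was 0.25 ± 0.09 on the log2 scale (adjusted p = 0.0287). The call was lost with DESeq2 (adjusted p = 0.0651), without control replicate 3 (0.136), and without overexpression replicate 1 (0.0848) or 3 (0.0757). Knockdown libraries held 12.7 and 12.0 CPM, within the control range. GENCODE lists a noncoding gene on the opposite strand over RGS2, and the strand setting of the counting is not given in the sources used here, so reads of the pair may not be told apart.

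RGS3, the remaining R4 gene, which also gives rise to long isoforms, spread widely in control, at 3.28, 3.83 and 2.27 CPM. It stood at 3.67, 4.07 and 3.53 CPM with overexpression, overlapping control. The log2 fold change of 0.25 ± 0.17 did not pass (adjusted p = 0.25), and its 95% confidence interval ran from -0.12 to 0.61. It was 0.092 without control replicate 3 and 0.40 without control replicate 2. Knockdown libraries held 2.98 and 2.18 CPM. RGS3 too has an antisense noncoding gene in the annotation.

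In the RZ group, RGS19 fell while RGS17 and RGS20 rose with overexpression. RGS19, also known as GAIP and found as a partner of Gi alpha subunits, measured 24.2, 24.3 and 24.6 CPM in control and 17.4, 19.1 and 15.4 CPM with overexpression. Its controls lay close together (SD 0.181 CPM), and every treated library was below them. RGS19 had a log2 fold change of -0.48 ± 0.08 (adjusted p = 3.89e-05), with adjusted p-values of at most 0.000434 over the alternatives. The knockdown libraries, at 20.5 and 20.2 CPM, lay between control and overexpression. RGS19 and the nociceptin receptor gene OPRL1 are divergent neighbours whose annotated ends lie 185 bases apart in GENCODE 29. OPRL1, at 2.30 CPM in control, had a log2 fold change of -0.05 ± 0.18 with overexpression (adjusted p = 0.864) and of -0.51 ± 0.21 with knockdown.

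RGS17, also called RGSZ2, measured 3.86, 3.47 and 4.01 CPM in control and 4.50, 4.83 and 5.14 CPM with overexpression, with no overlap. The log2 fold change was 0.34 ± 0.13 (adjusted p = 0.0376). RGS17 has the lowest transcript GC content of the 10 genes (32.3%, against a median of 48.5% over genes), and with an offset for GC content, an analysis chosen after seeing the data, its log2 fold change was 0.21 (adjusted p = 0.185). The call was also lost with DESeq2 (adjusted p = 0.138), without the count filter (0.0514), without overexpression replicate 2 (0.0771) or 3 (0.0831), and without control replicate 1 (0.0711) or 2 (0.142). Knockdown libraries held 3.11 and 3.35 CPM, both below control.

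RGS20, also called RGSZ1, had the fewest reads of the 10 genes, from 11 to 36 per library. Control libraries held 0.576, 1.24 and 0.735 CPM, overexpression libraries 1.42, 1.25 and 1.84 CPM, and knockdown libraries 1.14 and 1.12 CPM. The overexpression libraries were above all controls, replicate 2 only just above control replicate 2. The log2 fold change with overexpression was 0.78 ± 0.28 (adjusted p = 0.0246), with a 95% confidence interval from 0.19 to 1.37. Without control replicate 1 it was 0.51 (adjusted p = 0.173), without control replicate 2 it was 1.17, and the call was also lost with DESeq2 (0.0732), without control replicate 3 (0.0693) and without overexpression replicate 1 (0.0519) or 3 (0.0596). RGS20 was the only one of the 10 genes with a knockdown log2 fold change above 0, at 0.42 ± 0.31, which was 0.15 without control replicate 1 and 0.82 without control replicate 2. An antisense noncoding gene is annotated over it.

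In the R12 group, RGS14 fell with overexpression and RGS10 and RGS12 did not pass the test. RGS14, which also binds Ras-type GTPases and holds a GoLoco motif that keeps Gi alpha subunits in their GDP form, measured 18.1, 18.9 and 20.4 CPM in control and 15.7, 17.996 and 13.7 CPM with overexpression. The overexpression libraries were all below control, replicate 2 narrowly. The log2 fold change was -0.26 ± 0.10 (adjusted p = 0.0396). That call was lost with scaling by library totals (adjusted p = 0.0912), without overexpression replicate 1 (0.105) or 3 (0.0962), and without control replicate 2 (0.0737) or 3 (0.127). Knockdown libraries held 12.2 and 15.6 CPM, both below every control library.

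RGS12, a large protein with PDZ, Ras-binding and GoLoco parts, measured 21.8, 20.2 and 22.7 CPM in control and 21.4, 21.4 and 18.8 CPM with overexpression. The groups overlapped, with a log2 fold change of -0.06 ± 0.08 (adjusted p = 0.575) and a 95% confidence interval from -0.22 to 0.11. RGS10, a small protein of little more than the RGS box, measured 23.9, 22.7 and 23.5 CPM in control and 23.3, 25.0 and 26.7 CPM with overexpression. It too overlapped, at 0.09 ± 0.07 (adjusted p = 0.343; interval from -0.07 to 0.24). Both genes stood below every control library with knockdown, RGS12 at 16.1 and 17.5 CPM and RGS10 at 18.4 and 20.0 CPM.

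The members differed in how overexpression replicate 3 compared with the other overexpression libraries. RGS14, RGS16, RGS19 and RGS12, with transcript GC contents of 62.9%, 53.4%, 62.3% and 57.7%, were lower there than the mean of replicates 1 and 2, by log2 differences from -0.29 to -0.18. RGS20, RGS2, RGS10 and RGS17, with 47.4%, 41.5%, 44.4% and 32.3%, were higher there, by 0.13 to 0.35. RGS3 (58.9% GC, -0.12) and RGS4 (39.7% GC, -0.09) were slightly lower. With the GC offset, RGS16, RGS4 and RGS19 had log2 fold changes of 0.82, -0.61 and -0.44 and stayed called. The calls of RGS2, RGS14 and RGS20 were kept with this offset too, and that of RGS17 was lost. Of all genes, 55.3% were called with it.

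With knockdown, the values that led to the choice of these genes lay below control for most of them. Fold changes (log2) were below 0 in 9 of 10 genes, against 50.2% of all genes, with a median of -0.28 against a median near 0 over all genes. Both knockdown libraries were below every control library for 7 of the 10 (31.1% of all genes were below and 63.7% on either side). Since the list was drawn up on this comparison, these counts support nothing. RGS4 (-0.85 ± 0.17) and RGS14 (-0.48 ± 0.11) had the lowest values, followed by RGS12 (-0.37 ± 0.09), RGS16 (-0.30 ± 0.08) and RGS10 (-0.29 ± 0.08). RGS3 (-0.26 ± 0.20), RGS19 (-0.26 ± 0.08) and RGS17 (-0.23 ± 0.15) were nearer to control, and RGS2 (-0.03 ± 0.10) was close to 0. Without knockdown replicate 2, RGS14 stood at -0.30 and RGS3 at -0.55, and without knockdown replicate 3 RGS3 stood at -0.095.

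**Figure D3:**
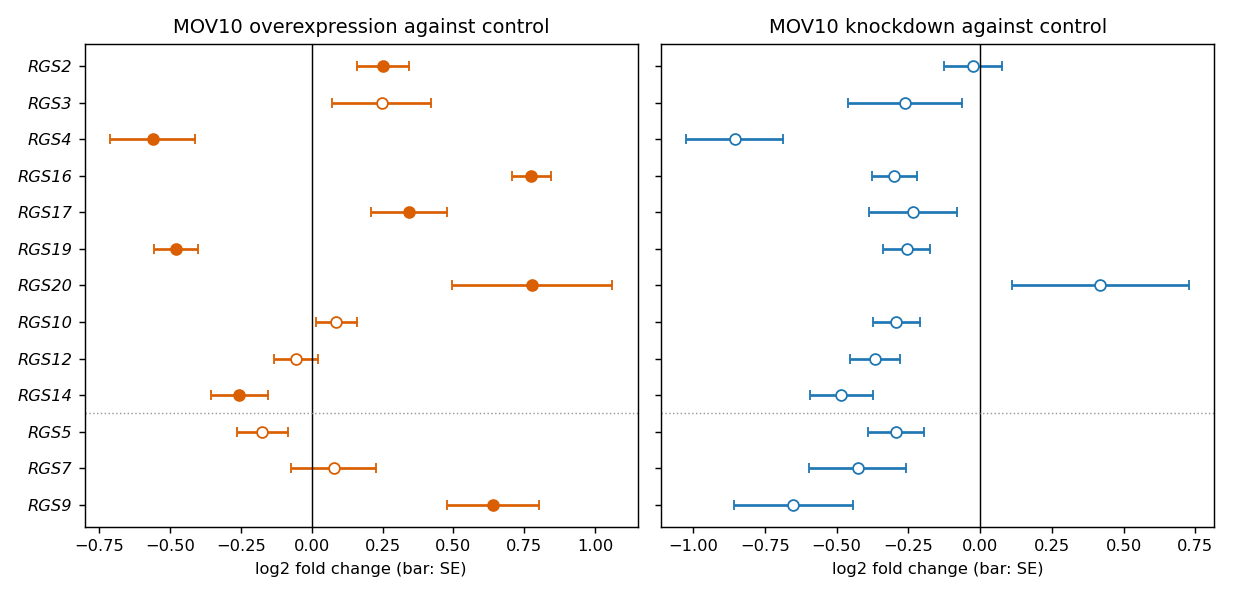
Log2 fold change (horizontal axis, bars show the SE) of RGS genes with MOV10 overexpression (left, filled points have an edgeR adjusted p under 0.05) and knockdown (right, no test, all points open); the 10 listed genes stand above the dotted line and RGS5, RGS7 and RGS9 below it. With overexpression points lie on both sides of 0, from -0.56 for RGS4 to 0.78 for RGS20, whereas with knockdown all but RGS20 lie below 0.

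Both comparisons share their control libraries, so their fold changes are not independent of each other. Side by side, RGS4, RGS14 and RGS19 were below 0 in both, as was RGS12 (-0.06 with overexpression, and 0.0019 with the GC offset). RGS20 was above 0 in both. RGS2, RGS3, RGS10, RGS16 and RGS17 were above 0 with overexpression and below 0 with knockdown, the widest pair being RGS16 at 0.77 and -0.30.

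The rest of the family held few expressed genes. RGS1, RGS18 and RGS21 had no read in any library, which allows up to 0.0951 to 0.230 CPM per library (3 counts, counting error only). RGS8, RGS13, RGS22, RGS6 and RGS11, the last 2 of the R7 type, had at most 11 reads in a library and were not tested. Of the R7 genes, RGS9, which serves in retina and striatum, rose with overexpression from 3.24, 3.57 and 2.20 CPM to 4.63, 5.33 and 4.22 CPM, with no overlap. Its log2 fold change was 0.64 ± 0.16 (adjusted p = 0.00249), and the call was kept under all 16 alternatives. RGS9 had 1.87 and 2.07 CPM with knockdown, below all controls.

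RGS7, the second tested R7 gene, had a log2 fold change of 0.08 ± 0.15 with overexpression (adjusted p = 0.715), and RGS5, of the R4 type, one of -0.18 ± 0.09 (adjusted p = 0.112). With the GC offset RGS5 was called, at a log2 fold change of -0.26. GNB5, the partner of R7 proteins, passed narrowly at -0.18 ± 0.07 (adjusted p = 0.048), and that call was lost in 9 of 16 alternatives. The anchors of R7 complexes, RGS7BP and RGS9BP, did not pass, at 0.13 ± 0.34 and 0.38 ± 0.22. In the knockdown comparison, given with no test because it served to choose the family, RGS5, RGS7 and RGS9 had log2 fold changes of -0.29 ± 0.10, -0.43 ± 0.17 and -0.65 ± 0.21. Across all 13 tested RGS genes, 12 were below 0 there.

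RGS16 was both the most abundant member per length and the one with the smallest adjusted p, so genes with a like pattern were sought for it. Over the 8 libraries, EML2 (r = 0.996), PXDC1 (r = 0.995) and APEH (r = 0.995) had the highest Pearson correlations of log2 CPM with RGS16 among 11165 genes. Their log2 fold changes with overexpression were 0.71, 0.63 and 0.49, and with knockdown -0.20, -0.31 and -0.16. The points share 3 groups of libraries, and 594 genes had an r above 0.9.

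The other genes of G-protein signalling were taken from 7 lists. With overexpression 46 of 85 tested genes passed, 21 higher and 25 lower (49.2% of all genes, 25.2% higher and 24.1% lower). With knockdown 32 passed, of which 6 were higher and 26 lower (39.0% of all genes, 19.9% higher and 19.1% lower). The counts of each list below are to be read against these shares. The median log2 fold change of the 85 genes was -0.04 with overexpression and -0.06 with knockdown. Without knockdown replicate 2, fewer genes were called with knockdown, both in these lists and over all genes, and a lone library then stood for the group. Values of named genes below are log2 fold changes with their SE, with adjusted p-values of at most 0.0463 with overexpression and 0.041 with knockdown. Of the 40 calls named below by rule, 31 were kept under all alternatives run and 9 were lost under at least 1. With overexpression the call of GPSM2 was lost in 11 of 16 alternatives and that of ARRDC1 in 7. With knockdown PLCB2 was lost in 6, KCNJ3 in 4, and ARRDC3 in 2 (without knockdown replicate 2 or control replicate 1). ADRBK2, ARRB2 and ARRDC1 were lost only without knockdown replicate 2, and GNG4 only without knockdown replicate 3.

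Other proteins with an RGS box were lower with overexpression where they passed: 7 of 14 fell and 0 rose (median -0.19). GRK6, a kinase of activated receptors, fell by 0.47 (log2, SE 0.06), the Wnt scaffold gene AXIN1 by 0.37 (SE 0.06) and ARHGEF11 by 0.27 (SE 0.05). With knockdown only the receptor kinase gene ADRBK2 passed, at -0.22 ± 0.06.

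The alpha subunits, on which RGS proteins act, had 5 genes lower and 2 higher of 13 with overexpression (median -0.11) and 6 lower and 0 higher with knockdown (median -0.25). GNA11 of the Gq kind fell with overexpression by 0.54 (SE 0.08), GNAI2 of the Gi kind by 0.42 (SE 0.07) and GNA12 by 0.40 (SE 0.05). With knockdown GNAZ fell by 0.79 (SE 0.09), from 21.6 to 12.6 CPM, GNAL by 0.43 (SE 0.08) and GNA12 by 0.25 (SE 0.06). GNAZ is a preferred target of RZ proteins.

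The beta and gamma subunits divided, with 4 of 13 higher and 3 lower with overexpression and 2 higher and 4 lower with knockdown. GNG4 rose with overexpression (0.50 ± 0.07) and with knockdown (0.30 ± 0.08). With overexpression GNB1, the main beta subunit gene by counts, fell by 0.24 (SE 0.04), and GNG10, at 1.36 CPM in control, by 1.43 (SE 0.34). With knockdown GNG2 fell by 1.05 (SE 0.14) and GNG11 by 0.64 (SE 0.11).

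Exchange factors, chaperones and GoLoco proteins of the alpha subunits rose in 3 of 10 cases with overexpression and fell in 0. NUCB2 stood at 0.43 ± 0.07, CCDC88A at 0.31 ± 0.07 (0.20 without overexpression replicate 3) and GPSM2, whose call was lost in most alternatives, at 0.14 ± 0.05. With knockdown 2 rose and 3 fell: NUCB1 stood at 0.36 ± 0.06, the GoLoco gene GPSM3 at -0.95 ± 0.18 and RAP1GAP at -0.63 ± 0.12.

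The effectors, which are adenylyl cyclases, phospholipases C beta and potassium channels opened by G proteins, rose in 7 of 11 cases with overexpression and fell in 0 (median 0.19). PLCB2 rose by 0.69 ± 0.12, ADCY7 by 0.59 ± 0.10 and ADCY5 by 0.57 ± 0.11. With knockdown 3 fell and 0 rose (median -0.09), namely PLCB1 (-0.35 ± 0.07), PLCB2 (-0.40 ± 0.15) and the channel gene KCNJ3 (-0.81 ± 0.31). KCNJ3 had 19 and 23 reads in the knockdown libraries and stood at -0.28 without knockdown replicate 2 (adjusted p = 0.633) and at -1.29 without replicate 3.

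Genes of cAMP and protein kinase A fell in 9 of 18 cases with overexpression and rose in 3, and fell in 6 and rose in 1 with knockdown. Among regulatory subunit genes, PRKAR1B (-0.94 ± 0.08) and PRKAR2A (-0.46 ± 0.05) had the smallest adjusted p with overexpression, and PRKAR2B (-1.01 ± 0.07) and PRKAR1A (-0.51 ± 0.05) with knockdown. Whether the treatments differ in these genes was not tested. The catalytic subunit gene PRKACB fell in both, by 0.54 (SE 0.06) and 0.48 (SE 0.06). Of 6 arrestin genes, 2 rose and 1 fell with overexpression and 1 rose and 3 fell with knockdown. ARRDC3, an alpha-arrestin, rose from 67.7 to 144 CPM with overexpression (log2 1.09 ± 0.07, adjusted p = 1.91e-10), ARRDC4 rose by 0.64 ± 0.06 and ARRDC1 stood at -0.25 ± 0.10. With knockdown ARRB2, which binds phosphorylated receptors, stood at -0.31 ± 0.07, ARRDC1 at -0.49 ± 0.11 and ARRDC3 at 0.27 ± 0.08 (0.17 without knockdown replicate 2).

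**Figure D4:**
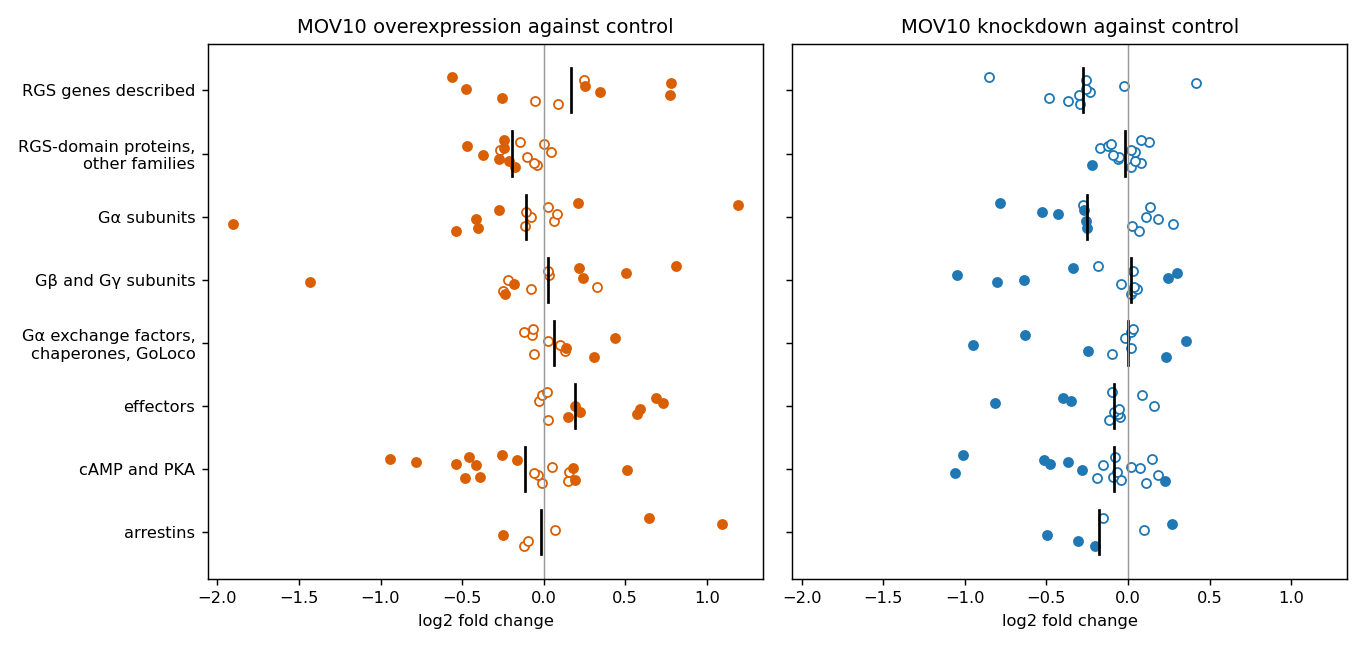
Log2 fold change (horizontal axis) of each tested gene in the RGS list and in 7 lists of G-protein signalling genes, with MOV10 overexpression (left) and knockdown (right); filled points have an edgeR adjusted p under 0.05, black bars are list medians, and the RGS genes are open on the right because they were chosen on that comparison. Effector genes that passed lie to the right of 0 with overexpression, and RGS-box genes of other families that passed lie to its left.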

How the data were processed

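Raw counts per gene symbol were deposited by the authors for total RNA of HEK293F cells. A Trizol extract (1 ug) went into stranded TruSeq libraries, per the labels. The submitters' processing notes name build hg19 and, with no order, TopHat2 2.0.8, SAMtools 0.1.18, HTSeq 0.5.3p9, Trimmomatic 0.22, CASAVA 1.8.2 and edgeR; the strand setting is not given in the sources used here. Columns were matched to libraries by title.

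In R 4.3.3, edgeR 4.0.16 was run on all 8 libraries with a mean per group: filterByExpr (minimum count 10, minimum total 15), TMM factors and glmQLFTest (quasi-likelihood, two-sided), with Benjamini-Hochberg adjustment over 15254 genes and a threshold of 0.05. SEs come from this fit. The procedure was tested on simulated data. Each library counted as a replicate. No pair of libraries of a group agreed within sampling noise (chi-square per gene from 1.85 to 7.81). That scatter does not show whether the libraries stem from separate cultures. Differences are limited by depth, from 12.7 M to 32.8 M counts.

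GENCODE 29 gave exon lengths and 3' UTRs of at least 50 bases (20194 symbols matched by name, 1462 by an older symbol through RefSeq, 1712 unmatched; all 10 RGS genes matched), and RefSeq gave promoters (all RGS genes listed but RGS20) and microRNAs; 1 of the 20 microRNAs sought, miR-130a, was not used. Neither has the counts' build. Named beside the 10 genes are MOV10, the tested RGS genes and, per list, up to 3 called genes with the smallest adjusted p in each comparison. The members and lists were chosen with earlier results of these data known. Alternatives were size factors, library totals, other filters, DESeq2 1.42.0, only the compared groups, the replicate number as a block, each library left out and, added after the data had been seen, a GC content offset.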

Additional observations from a re-analysis of the deposited data

How the results depend on the processing

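The number of RGS genes called higher with overexpression, 4 as reported, was 1 with DESeq2 and ran from 1 to 4 when each library was left out: 1 without overexpression replicate 3, and 2 without overexpression replicate 1, control replicate 1 or control replicate 3. The number called lower ran from 2 to 3. Of all genes, 49.2% were called in either direction with overexpression as reported and 43.3% with DESeq2. With each library left out this share ran from 40.2% (without control replicate 1) to 51.2% (without overexpression replicate 3). The median log2 fold change of the RGS genes was 0.21 with overexpression and -0.32 with knockdown under scaling by library totals, and ran from 0.089 (without control replicate 3) to 0.19 and from -0.31 to -0.26 with each library left out. The number with a knockdown value below 0 ran from 8 to 9. Pathway genes called with overexpression ran from 36 to 48, and with knockdown from 14 (without knockdown replicate 2, the lone library being assumed to vary like the other groups) to 39. MOV10 ran from 5.04 to 5.18 with overexpression and from -0.68 to -0.54 with knockdown. No called fold change named here reversed.

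By the correlation of deviations from group means, the only same-numbered pair above 0.1 was that of knockdown and control replicate 3. Control and overexpression correlated at 0.04, -0.31 and -0.29, knockdown and control at -0.00084 and 0.21, and knockdown and overexpression at 0.012 and 0.071. Deviations within a group cancel out, so these values depend on each other. They cannot tell whether libraries of the same number share a batch, and the main fit did not pair them. In a fit with a replicate block, 4 RGS genes were called higher and 2 lower with overexpression (RGS14 at an adjusted p of 0.0584). The medians were 0.16 and -0.29, and 44 and 28 pathway genes were called with overexpression and knockdown. In that fit 46.7% and 33.9% of all genes were called. Low counts limit RGS20, RGS3, RGS4 and RGS17, whose SEs with overexpression were the largest among the listed RGS genes, from 0.13 (RGS17) to 0.28 (RGS20). Small differences in these genes may have gone undetected.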
